A study of Mus musculus with 2 samples.

Results

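The 86 genes described here encode the proteins of the cytosolic ribosome, together with close paralogs and look-alikes that carry the same kind of symbol. They were taken from the 32285 genes of the deposited feature lists by symbol: every Rpl or Rps symbol followed by a digit, plus Rpsa, Rplp0, Rplp1 and Rplp2. Pseudogene symbols ending in -ps (5 genes) and the Rps6k kinases were left out. The rule gave 52 Rpl symbols, named for the large subunit, and 34 Rps symbols, named for the small subunit. Of these, 9 are paralogs or look-alikes (Rpl3l, Rpl7l1, Rpl10l, Rpl22l1, Rpl36al, Rpl39l, Rps19bp1, Rps27l and Rps27rt), and 77 are the remaining members.

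The cells came from the spleens of wild-type mice injected intraperitoneally with 10000 iRBCs, a term not spelled out in the labels. They then received Vehicle or Glutoborin, a compound not described further in the labels. The first treatment day was day 2 and the last was day 4, and the spleens were taken on day 5. Leukocytes sorted for CD45 gave 1 droplet single-cell library per group, and how many mice went into each is not stated in the labels. No test of the groups was therefore possible. All intervals below are 95% intervals of counting error within these 2 libraries and contain no spread between mice.

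A ribosome is built from a large and a small subunit, each made of ribosomal RNA and of proteins that, apart from those of the stalk, are present in equal amounts. In mammals the mRNAs of these proteins share a 5′ terminal oligopyrimidine (TOP) tract, a run of pyrimidines that starts with C at the cap and couples their translation to growth signals through mTOR. In single-cell data of resting lymphocytes, which hold little cytoplasm, these mRNAs are known to make up a large share of the transcripts.

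The start sites below were chosen to look for a TOP-type tract in the annotated windows of single members and of paralogs with their partners. Not all of them show one, since the longest run is 3 bases in Rpl10 and Rpl36al and 4 in Rpl22. Each is 30 bases of RefSeq sequence on GRCm38.p6, from 15 bases before the annotated transcription start to 15 bases after it, with the longest run of pyrimidines that begins with C in capitals. Rps24 is the most abundant member, Rpl12, Rps9 and Rpl10 are members whose proportion differed between cell types, and the others are paralogs with their partners, except that Rpl7l1 is shown alone.
Rps24 (chr14:24490663-24490692, plus strand): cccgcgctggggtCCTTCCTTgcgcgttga
Rpl12 (chr2:32961697-32961726, plus strand): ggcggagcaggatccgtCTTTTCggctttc
Rps9 (chr7:3704026-3704055, plus strand): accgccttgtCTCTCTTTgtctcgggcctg
Rpl10 (chrX:74270801-74270830, plus strand): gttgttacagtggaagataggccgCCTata
Rps27 (chr3:90213634-90213663, minus strand): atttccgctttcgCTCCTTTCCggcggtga
Rps27rt (chr9:114982725-114982754, minus strand): agaacttatcccttgCTTTCCggcggtgac
Rps27l (chr9:66946071-66946100, plus strand): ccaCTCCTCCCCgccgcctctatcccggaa
Rpl36a (chrX:134585639-134585668, plus strand): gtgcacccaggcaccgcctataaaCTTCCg
Rpl36al (chr12:69184053-69184082, minus strand): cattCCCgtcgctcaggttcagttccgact
Rpl22 (chr4:152325711-152325740, plus strand): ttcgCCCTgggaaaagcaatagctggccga
Rpl22l1 (chr3:28805493-28805522, plus strand): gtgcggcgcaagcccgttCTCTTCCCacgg
Rpl7l1 (chr17:46782642-46782671, minus strand): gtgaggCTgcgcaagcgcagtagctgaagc

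In Rps24, Rps27 and Rps9 the run spans the annotated start shown, and in Rps27rt it begins at the start itself. In Rps27l the longest run lies before the start, and in Rpl7l1 it is 2 bases long. Rps24, Rps27l and Rpl22 each have a second annotated start, not shown, where the longest runs are 3, 4 and 5 bases. Of the 86 members, 66 had at least 1 start in the RefSeq table. A run of at least 6 pyrimidines beginning with C lay in the window of 37 of these 66 genes (56.1%), against 25.5% of all 27025 genes of the table. The letters CTTTCC, searched on both strands, stood in 14.1% of the 78 member starts and in 2.68% of all starts. They can overlap the pyrimidine run, as they do in Rps27 and Rps27rt. These matches describe the annotated windows only, since an annotated start can lie some bases from the one in use.

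The deposited matrices held 8204 Vehicle barcodes with 48526451 UMIs (unique molecular identifiers, each counting 1 captured RNA molecule) and 9646 Glutoborin barcodes with 56862506 UMIs. After filtering, 6492 and 8901 cells were kept, with medians of 5688 and 4811 UMIs. The filter at 10% mitochondrial UMIs took 17.4% of all barcodes in Vehicle and 3.43% in Glutoborin. Those barcodes had low ribosomal protein shares of 11.8% and 13.3%. The 2 libraries shared 24 barcode sequences. Lyz2, a monocyte and macrophage gene, had a UMI in 41.8% of Vehicle and 15.7% of Glutoborin B cells. The plasma cell gene Jchain had one in 14.5% and 3.83% of B cells. The B cell gene Cd79a had one in 41.3% and 25.4% of CD8 T cells. UMIs of these 3 genes were thus found outside their own cell types more often in the Vehicle library, and their part in the differences between libraries below was not tested. The leukocyte gene Ptprc, which encodes the sorted CD45, had a UMI in 95.7% and 93.6% of B cells and in 98.7% and 100% of NK cells.

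In the kept cells, the members gave 30.6% of all UMIs in the Vehicle library (13508228 UMIs) and 31.9% in the Glutoborin library (16735983 UMIs). The 5 pseudogenes that the rule leaves out held 0.0752% and 0.0839% as many UMIs as the members. Rps24, a small subunit protein, was the most abundant member at 8911 and 9303 CPM (UMIs per 1000000 UMIs of the kept cells). It was followed by Rplp1, an acidic protein of the stalk that recruits translation factors, at 6863 and 7084 CPM. Rpl13 had 6484 and 6849 CPM, Rps20 6228 and 6314 CPM, and Rpl23 6172 and 6360 CPM. At the other end stood the paralogs known from other tissues. The testis paralog Rpl10l had 0 UMIs in both libraries, the striated-muscle paralog Rpl3l had 47 and 30 UMIs, and Rpl39l, best known from testis, had 66 and 31 UMIs. These 3 genes were seen in at most 0.585% of the cells of a library, which is too few to compare between libraries. The few Rpl3l UMIs lay mostly in the monocyte class, 38 of 47 in Vehicle and 19 of 30 in Glutoborin, in 9.43% and 7.32% of monocytes. The UMIs come from the 3′ end and count molecules, but capture and mapping differ between genes, so levels of different genes compare only roughly.

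Cells were grouped by clustering on genes other than the members, and the clusters were named from marker genes into 14 classes. Of the 7 classes compared, CD8, CD4 and regulatory T cells had the highest ribosomal protein shares, B cells followed, and NK cells, dendritic cells and monocytes were lower. CD8 T cells, the cytotoxic T lineage, had 37.1% of their UMIs in these genes in Vehicle and 39.2% in Glutoborin. CD4 T cells had 36.7% and 37.6%, regulatory T cells, which restrain other T cells, 31.4% and 33.7%, and B cells 30.6% and 31.6%. NK cells had 24.4% and 23.8%, the class of type 2 or mature dendritic cells 21.7% and 22.7%, and monocytes 16.1% and 17.1%. These 7 classes, each with at least 100 cells per library, stood in the same order in both libraries, and the CD8 T cell share was 2.30 times the monocyte share in Vehicle and 2.29 times in Glutoborin. Regulatory T cells and B cells in Vehicle were the closest neighbours apart from CD8 and CD4 T cells. Those 2 changed places in the Vehicle library when mitochondrial and immunoglobulin UMIs were left out of the total.

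**Figure D1:**
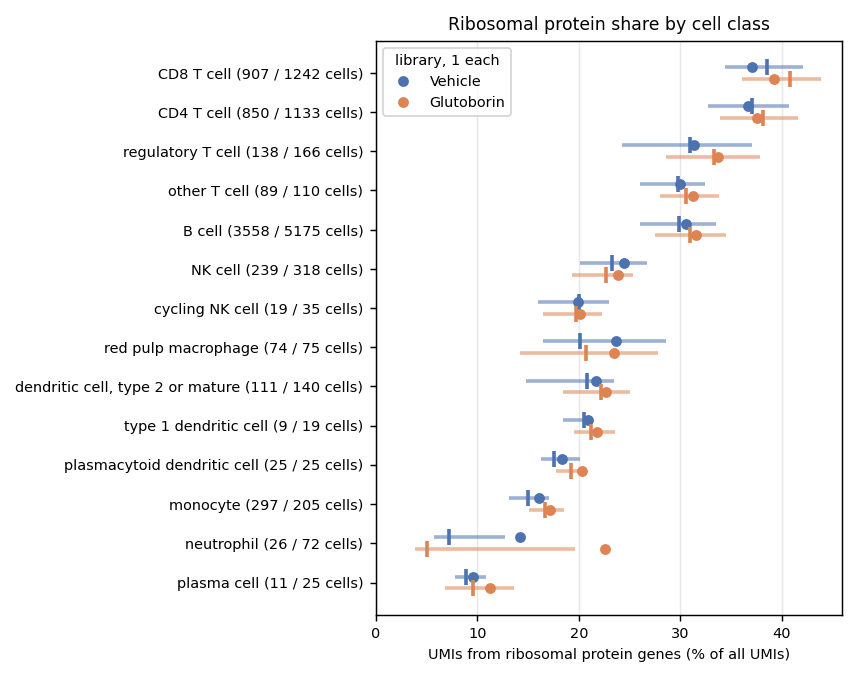
Percentage of all UMIs that came from the 86 ribosomal protein genes (x axis) in each of the 14 named cell classes (y axis, with cell numbers in Vehicle and Glutoborin); the large points are summed UMIs per library, the small vertical marks the median over cells and the bars the range from the 25th to the 75th percentile of cells. CD8 T cells lie highest at 37.1% and 39.2%, monocytes lie at 16.1% and 17.1%, and the summed value of neutrophils stands far from their cell medians.

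Single cells spread widely around these sums. The 25th and 75th percentiles of CD8 T cells were 34.4% and 42.1% in Vehicle and 36.1% and 43.9% in Glutoborin. In monocytes they were 13.2% and 17.1% in Vehicle and 15.05% and 18.6% in Glutoborin, so these ranges did not overlap between CD8 T cells and monocytes. Within B cells the share rose with the depth of the cell. With the cells of a class ranked by UMIs and divided into 4 groups of equal size, it was 27.1% in the shallowest and 32.9% in the deepest group of Vehicle B cells, and 29.0% and 33.5% in Glutoborin. CD8 T cells did not follow that order, since their deepest group was the lowest at 35.4% and 37.6%. Depth did not order the classes, since monocytes were deeper than CD8 T cells, at medians of 11484 and 11530 UMIs against 7703 and 6980.5.

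The smaller classes, with under 100 cells in at least 1 library, are given without a comparison of the libraries. Plasma cells, the antibody-secreting stage, had the lowest summed share at 9.54% in 11 Vehicle cells and 11.2% in 25 Glutoborin cells. Immunoglobulin genes gave 58.6% and 54.4% of the UMIs of these plasma cells. Plasmacytoid dendritic cells had 18.4% and 20.3%, type 1 dendritic cells 20.9% and 21.8%, cycling NK cells 19.9% and 20.1%, red pulp macrophages 23.7% and 23.5%, and T cells in no finer class 30.02% and 31.3%. Red pulp macrophages, the splenic phagocytes of aged erythrocytes, carried a UMI of the T cell gene Cd3e in 40.5% and 38.7% of their cells. The neutrophil sums of 14.2% and 22.6% came from mixed cells, as the cell medians were 7.18% and 5.07%. The 9 of 26 Vehicle and 25 of 72 Glutoborin neutrophils above 10% held 50.6% and 74.2% of the class's UMIs.

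The composition of the ribosomal protein UMIs was far more even than their sum. Each member was expressed as a percentage of all member UMIs in a class, so that it does not move with the total, and the range of this percentage over the 7 classes was taken on the log2 scale. For the 82 members with at least 50 UMIs in each class of each library, the median range was 0.30 in both libraries. Rpl23 had one of the smallest ranges, 0.08 in each library, and held between 1.90% and 2.04% of member UMIs in all 14 class and library sums. Of the 82 members, 55 were highest in the same class in both libraries, and 56 were lowest in the same class. A range above 1, a change of over 2-fold between classes, was reached in both libraries by 4 members: Rps27l, Rpl7l1, Rpl36al and Rpl12.

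**Figure D2:**
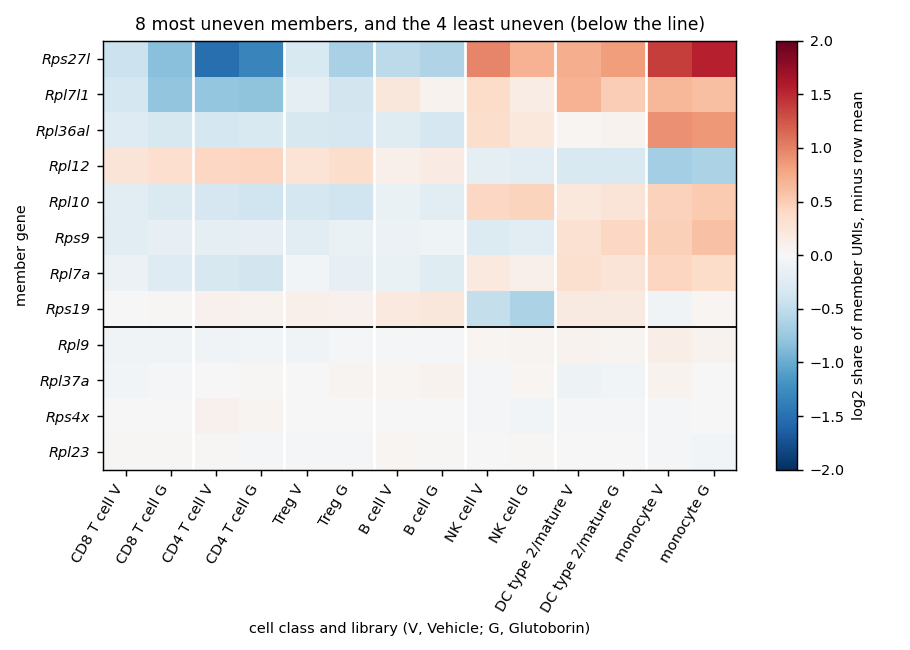
Log2 percentage of member UMIs, minus the mean of the row, for the 8 members with the largest ranges over the 7 compared classes and the 4 with the smallest (rows), in each class and library (columns; red above and blue below the row mean). Rps27l, Rpl7l1 and Rpl36al are red in monocytes and blue in CD4 T cells, and Rpl12 is blue in monocytes and red in CD4 T cells.

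Among the small subunit members, Rps27l was the most uneven. It is a paralog of the zinc-finger protein Rps27 and is known as a p53 target. It held 0.166% of member UMIs in Vehicle monocytes and 0.0224% in Vehicle CD4 T cells, a log2 range of 2.90. In the Glutoborin library the same classes were highest and lowest, at 0.186% and 0.0256%, with a range of 2.86. Rps9, a protein of the small subunit body, was highest in monocytes (2.03% and 2.20% of member UMIs) and lowest in NK cells (1.21% and 1.27%). Rps19, a small subunit protein mutated in Diamond-Blackfan anaemia, was highest in B cells (1.82% and 1.85%) and also lowest in NK cells (1.14% and 1.02%). By this percentage, NK cells thus stood below the other compared classes for both of these members in both libraries. Rps27, the abundant partner of Rps27l, was highest in CD4 T cells, at 2.17% and 2.16%.

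Large subunit members were uneven in both directions. Rpl12, a protein at the base of the stalk, held 1.60% and 1.62% of member UMIs in CD4 T cells and 0.754% and 0.775% in monocytes. As a level, this was 5875 and 6077 CPM in CD4 T cells against 1214 and 1329 CPM in monocytes. Rpl10, an X-linked protein added late in the maturation of the large subunit, was highest in monocytes, at 1.25% and 1.30%. Its lowest values were 0.709% in Vehicle regulatory T cells and 0.687% in Glutoborin CD4 T cells. Rpl7a ran from 0.421% and 0.407% in CD4 T cells to 0.708% and 0.674% in monocytes. Rpl7l1, a look-alike of Rpl7 known from large subunit assembly, was lowest in CD4 T cells in both libraries, at 0.0120% and 0.0117%. It was highest in Vehicle dendritic cells (0.0332%) and Glutoborin monocytes (0.0310%). As a percentage of member UMIs, monocytes were thus the highest class for Rpl10, Rpl7a and Rps27l in both libraries and the lowest for Rpl12. The order of the other classes differed between these members. As levels in CPM, Rpl10 and Rpl7a were instead lowest in monocytes among the compared classes in both libraries, since the sum of all members was lowest there.

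Summed over symbols, Rpl genes of the 7 compared classes had between 1.17 times (CD4 T cells, Vehicle) and 1.33 times (NK cells, Glutoborin) as many UMIs as Rps genes. The ratio was 1.22 and 1.21 in B cells, 1.28 and 1.27 in monocytes, and 1.31 and 1.33 in NK cells. The order of NK cells above monocytes above B cells was the same in both libraries.

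For each paralog, its UMIs were taken as a percentage of the UMIs of the pair, itself plus its partner. Rps27l made up 9.55% (8.96 to 10.2%) of its pair in Vehicle monocytes and 11.3% (10.6 to 12.1%) in Glutoborin monocytes. In CD4 T cells it made up 1.02% (0.926 to 1.12%) and 1.17% (1.08 to 1.27%). NK cells stood between, with 7.85% and 6.02%, as did dendritic cells, with 5.82% and 6.61%, and B cells were low, with 2.13% and 1.95%. Both members of the pair differed: Rps27l itself was at 268 and 319 CPM in monocytes and at 82.1 and 96.2 CPM in CD4 T cells, and Rps27 was at 2538 and 2499 CPM against 7950 and 8114 CPM.

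Rpl36al, the autosomal paralog of the X-linked Rpl36a, was the more abundant of its pair in monocytes, at 59.2% (57.9 to 60.5%) and 57.2% (55.7 to 58.6%). In B cells it was the lesser one, at 31.3% (30.9 to 31.7%) and 30.4% (30.1 to 30.8%), and CD8 T cells were close to that at 30.3% and 29.7%. NK cells had 43.1% and 42.8% and dendritic cells 41.6% and 43.3%. The few plasma cells had 62.7% and 69.9%. Here the partner carried the difference: Rpl36al was at 1010 and 1043 CPM in monocytes and 868.4 and 837 CPM in B cells, while Rpl36a was at 696 and 782 CPM in monocytes and 1907 and 1915 CPM in B cells.

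Rpl22l1, the paralog of the RNA-binding protein Rpl22 that αβ T cell development requires, was a smaller part of its pair in the Glutoborin library in 7 of 7 classes. It made up 27.9% (27.5 to 28.2%) in Vehicle B cells and 24.4% (24.1 to 24.7%) in Glutoborin B cells. In monocytes it made up 22.9% (21.7 to 24.1%) and 16.1% (14.9 to 17.3%), the lowest class in both libraries. In CD8 T cells it made up 29.97% and 27.9%, and in NK cells, the highest class in both, 32.2% and 30.1%. The counting intervals of the 2 libraries were apart in 5 of the 7 classes, the exceptions being regulatory T cells and NK cells.

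Rpl7l1 was also a smaller part of its pair with Rpl7 in the Glutoborin library in 7 of 7 classes, with intervals apart in 1, the CD8 T cells (2.17% and 1.64%). Rps27rt held between 4.94% and 5.44% of its pair with Rps27 in Vehicle and between 5.54% and 6.52% in Glutoborin, higher in 7 of 7 classes with intervals apart in 3. The annotated transcript of Rps27rt is identical to that of Rps27 over 341 of 341 aligned bases, so how reads were divided between these genes is uncertain. The other measured paralogs were less alike, from 72.1% identity over the aligned part (Rpl7l1) to 87.7% (Rpl36al).

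**Figure D3:**
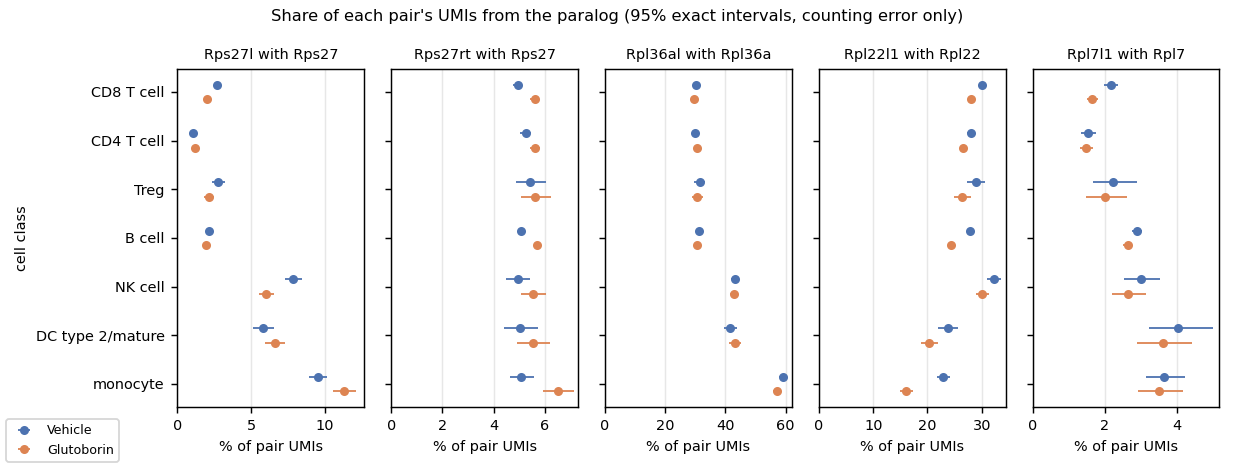
UMIs of the paralog as a percentage of the UMIs of the pair (x axes, each from 0) in the 7 compared classes (y axis) of each library, with 95% exact intervals of counting error. Rps27l and Rpl36al are highest in monocytes in both libraries, and Rpl22l1 lies lower in Glutoborin in all 7 classes, for example at 24.4% against 27.9% in B cells.

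B and T cells were clustered again, without the members, and the subsets were named from markers after these clusters had been seen. In B cells the ribosomal protein share was highest in marginal zone-like cells, a subset that answers blood-borne antigens, at 35.0% in Vehicle and 36.9% in Glutoborin. It was lowest in transitional-like cells, at 25.2% and 26.0%. These were named from 4 transitional markers that stood out in them, such as Vpreb3, but 5 interferon markers stood out there too. Cd93, a marker of such immature cells, had a UMI in 8.25% of them and in 20.3% of cycling B cells. Follicular-like cells had 30.8% and 31.3%, B-1-like cells 31.5% and 31.8%, and cells of the interferon-high subset 30.2% and 30.9%. The share was thus 1.39 times as high in marginal zone-like as in transitional-like cells in Vehicle, and 1.42 times in Glutoborin.

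One B subset was led by Srm, Mif and Hspd1 and by ribosome biogenesis genes, and its ribosomal protein share was 32.4% and 33.04%. A list of ribosome biogenesis genes, whose products make rRNA and assemble subunits, gave 0.9498% and 0.842% of the UMIs of this subset and 0.249% and 0.238% of those of follicular-like cells. Ncl and Nolc1, among the genes that set this subset apart, belong to that list, so this difference is a description. Within the ribosomal protein UMIs the subset was highest for single members among the 8 B subsets compared. Cycling B cells (32 and 42 cells), which had a high Rps27l part of its pair as given below, were too few to be among these. Rps27l was 0.0774% and 0.0717% of member UMIs there and 0.0317% and 0.0295% in follicular-like cells. Rps2, a small subunit protein near the mRNA entry site, was 1.65% and 1.60% there against 0.917% and 0.903%. Rpl7l1 was also highest in the biogenesis-led subset among those compared, at 0.0364% and 0.0310%. The median log2 range over the 8 B subsets was 0.26 in both libraries.

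In T cells the share was highest in naive CD8-like cells, at 41.7% and 42.6%. Memory CD8-like cells had 40.1% in each library, naive CD4-like cells 39.8% and 39.4%, and regulatory-like cells 32.1% and 34.3%. Activated CD4-like cells (79 and 111 cells) were lower, with 28.1% and 29.7%, and innate-like T cells (83 and 105 cells) had 30.4% and 31.9%. The interferon-high naive subsets stood below their counterparts, at 38.1% and 39.2% for CD8-like cells and 36.5% and 36.2% for CD4-like cells. Interferon-high naive CD8-like cells numbered 369 in Vehicle and 212 in Glutoborin, and the other naive CD8-like cells 229 and 624, so the classes mixed these subsets in different proportions.

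**Figure D4:**
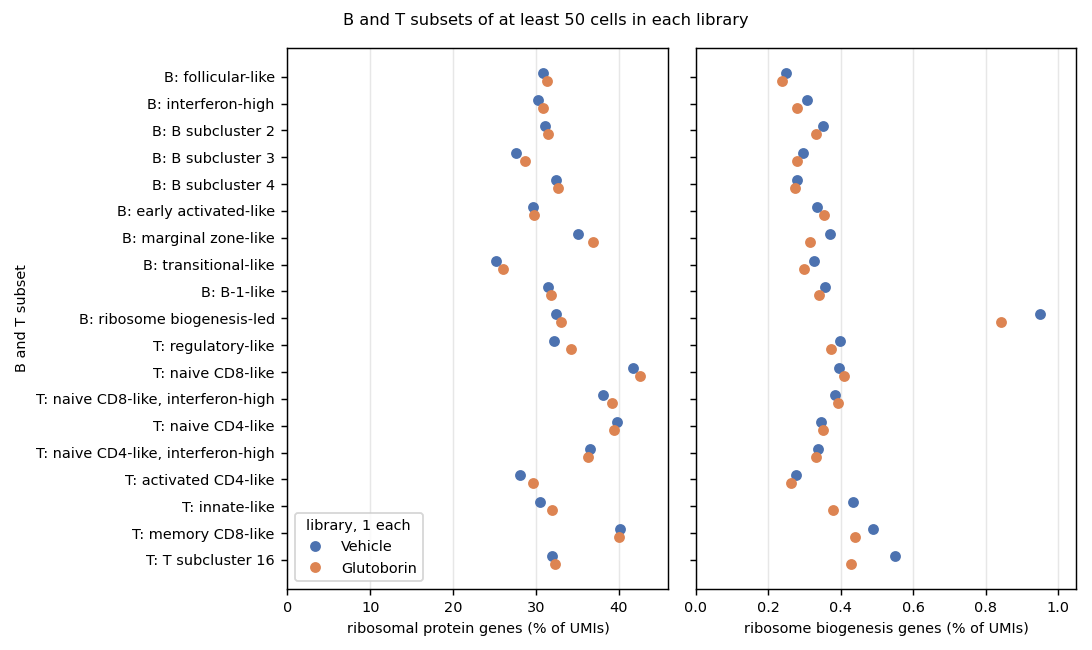
Percentage of UMIs from ribosomal protein genes (left) and from the ribosome biogenesis list (right) in the B and T subsets with at least 50 cells in each library (y axis), 1 point per library. Naive CD8-like cells are highest on the left at 41.7% and 42.6%, while the ribosome biogenesis-led B subset stands out on the right, at 0.9498% and 0.842%, and not on the left.

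Over the 6 T subsets compared, the median log2 range of a member was 0.17 in Vehicle and 0.16 in Glutoborin, and no member exceeded 1 in both libraries. Rps27l was again the most uneven, with ranges of 1.14 and 0.82. Rps12 was highest in memory CD8-like cells, at 1.66% and 1.64% of member UMIs, and lowest in interferon-high naive CD4-like cells, at 1.17% and 1.08%. Rps27 ran the other way, at 1.58% in memory CD8-like cells of both libraries and 2.22% and 2.18% in naive CD4-like cells. Rps27rt was lowest in memory CD8-like cells too, at 0.0851% and 0.0984%. In the small cycling T subset (49 and 41 cells), Rps27l made up 12.6% and 10.7% of its pair with Rps27, and in cycling B cells (32 and 42 cells) 6.48% and 10.1%, against 1.29% and 1.199% in follicular-like B cells.

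Between the libraries, the summed share was slightly higher in Glutoborin in 6 of the 7 compared classes and slightly lower in NK cells. The log2 ratio of Glutoborin over Vehicle was 0.08 in CD8 T cells, 0.03 in CD4 T cells, 0.10 in regulatory T cells, 0.05 in B cells, 0.07 in dendritic cells and 0.09 in monocytes. In NK cells it was -0.04 (-0.04 to -0.03). The largest of these 7 ratios, in regulatory T cells, is a fold of 1.07. The NK cell ratio lost its negative sign, at 0.00, when called doublets were kept. Other settings raised the ratio by over 1.5 times to 0.18 in dendritic cells (mitochondrial limit of 5%), 0.15 in monocytes (median over cells) and 0.06 in CD4 T cells (limit of 25%), so which class had the largest ratio changed with the setting. The libraries' B cells were spread differently over clusters. The interferon-high subset held 1294 Vehicle and 358 Glutoborin cells, and the follicular-like subset 319 and 1208. Within the 8 B subsets compared, the share was higher in Glutoborin in 8, by a log2 ratio of 0.08 at most, in marginal zone-like cells. Of the 6 T subsets compared it was higher in 3 and lower in the 2 naive CD4-like ones by 0.01. Within the CD8-like subsets the log2 ratio was 0.03 in naive cells, 0.04 in interferon-high naive cells and -0.0018 (-0.0067 to 0.0032) in memory cells, each below the 0.08 of CD8 T cells as a whole.

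Few members differed between the libraries by the folds counted here. Members and other genes were measured in a class if they had at least 50 UMIs there over both libraries, and a fold of 1.5 in CPM in either direction was counted. In CD8 T cells 0 of 83 members reached it, against 6.73% of all 9566 genes measured. In CD4 T cells 0 of 83 reached it (5.54% of all genes), in regulatory T cells 0 of 82 (8.37%), in B cells 0 of 83 (5.83%), in NK cells 0 of 83 (13.9%) and in dendritic cells 0 of 83 (11.6%). In monocytes 1 of 84 did (10.1% of all genes). That gene was Rps19bp1, which is not itself a ribosomal protein but binds Rps19, at 36.2 CPM in the Vehicle library and 21.3 CPM in the Glutoborin one. It had a log2 ratio of -0.77 (-1.28 to -0.28), on the lower side, where 6.39% of all genes lay. Most members are far more abundant than most genes and so carry less counting error, which by itself lowers how often a fold is passed. Among genes with at least 500 UMIs the share past 1.5-fold was 2.55% in CD8 T cells, 2.45% in CD4 T cells, 1.84% in regulatory T cells, 2.59% in B cells, 5.75% in NK cells, 6.4% in dendritic cells and 5.59% in monocytes, and 0 of the 80 to 83 members with that many UMIs passed. A count of 0 is close to such shares in the T and B cell classes. The medians over members were 0.08 in CD8 T cells, 0.04 in CD4 T cells, 0.09 in regulatory T cells, 0.04 in B cells, -0.04 in NK cells, 0.07 in dendritic cells and 0.09 in monocytes. Over all genes measured they lay between -0.05 and 0.02.

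At a fold of 1.2, 4 members were counted in CD8 T cells (28.2% of all genes), 0 in CD4 T cells (27.3%), 0 in regulatory T cells (37.3%), 1 in B cells (23.5%), 4 in NK cells (46.1%), 0 in dendritic cells (42.6%) and 5 in monocytes (38.6%). Among genes with at least 500 UMIs these shares were lower, from 11.3% in CD4 T cells and 16.5% in CD8 T cells to 25.9% in monocytes and 32.2% in NK cells, with 0 of 81, 4 of 83, 3 of 81 and 4 of 81 members counted. In CD8 T cells the lower 3 were Rps27l (175 and 140 CPM, log2 ratio -0.33), Rpl7l1 (59.5 and 46.7 CPM, -0.35) and Rps19bp1 (32.1 and 24.9 CPM, -0.37), and the higher one was Rps27rt (328 and 410 CPM, 0.32). All 4 are look-alikes rather than core proteins. The member higher in B cells was Rps27rt, at 333 and 405 CPM and 0.28.

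NK cells differed from the other classes in single core members. Rpl35, a large subunit protein at the exit of the peptide tunnel, had 1126 and 896 CPM in NK cells, a log2 ratio of -0.33 (-0.42 to -0.24). Rpl31, which also lines the exit region, had 796 and 634 CPM, a ratio of -0.33 (-0.43 to -0.23). The look-alike Rps27l was at 307 and 244 CPM, also with a ratio of -0.33, as in CD8 T cells. Among the NK members higher in Glutoborin were Rps21 (3199 and 3431 CPM, 0.10) and Rps27rt (188 and 224 CPM, 0.26). Rpl35 had negative ratios in all 7 classes, from -0.05 in monocytes to -0.33 in NK cells.

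In monocytes, Rps27rt had a ratio of 0.36, and Rpl3l, from 38 and 19 UMIs, one of -0.53 whose interval held 0 (-1.41 to 0.30). The stalk protein Rplp2 had 2020 and 2358 CPM (0.22), and Rps9 3269 and 3778 CPM (0.21). Rpl22l1 went the other way, at 349 and 258 CPM with a ratio of -0.43 (-0.58 to -0.29), while Rpl22 was at 0.20. Across classes, Rpl22l1 had ratios of -0.19 in B cells, -0.21 in dendritic cells, -0.13 in regulatory T cells, -0.08 in NK cells and -0.06 in CD8 and in CD4 T cells. Rpl22l1 and Rpl35 were each among the 3 lowest-ranked members in 4 of the 7 classes.

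**Figure D5:**
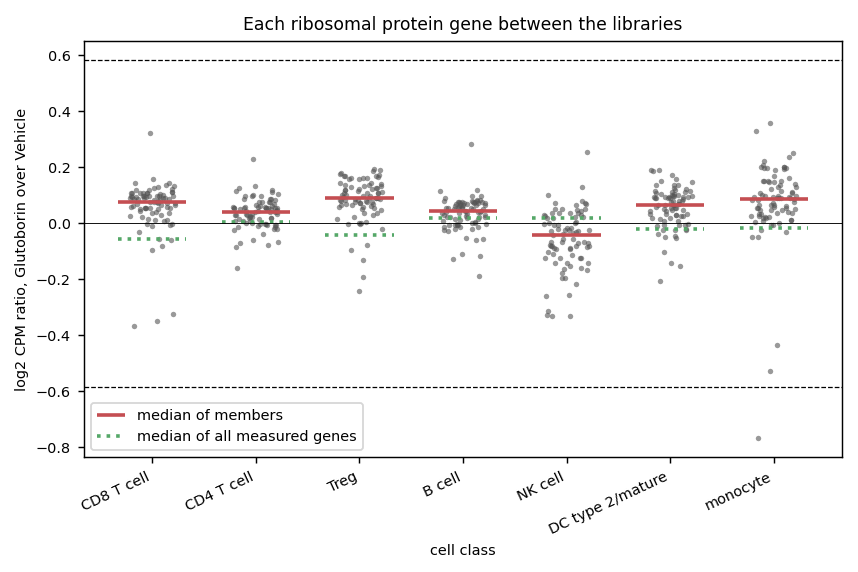
Log2 ratio of CPM in Glutoborin over Vehicle (y axis) for each measured member (points) in the 7 compared classes (x axis), with the median of the members (solid line), the median of all measured genes (dotted line) and the 1.5-fold limits (dashed lines). The members lie close together within each class, with medians from -0.04 in NK cells to 0.09 in regulatory T cells, and 1 point, Rps19bp1 in monocytes, lies beyond the limits.

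In the remaining classes the named members differed little. Rpl32 was among the 3 highest in CD8 T cells (0.16), CD4 T cells (0.12) and dendritic cells (0.19). Rpl21 was among them in CD8 T cells (0.14) and B cells (0.11), and Rpl12 in B cells (0.12). Rps26 and Rps25 in CD4 T cells had 0.12 and 0.13, and Rps29, Rps12 and Rps28 had -0.08, -0.07 and -0.07 there. Rps18 and Rpl11, a large subunit protein known to bind Mdm2, each had 0.19 in regulatory T cells. In dendritic cells Rps9 had 0.19.

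The genes around the ribosomal proteins did not all follow them. Fau, which encodes a ribosomal protein fused to a ubiquitin-like protein, and Rack1, a scaffold on the small subunit, fall outside the symbol rule. Neither passed 1.5-fold in any compared class. Over the 7 classes the log2 ratio of Fau ranged from 0.09 in monocytes to 0.22 in dendritic cells, and that of Rack1 from -0.01 in NK cells to 0.20 in monocytes.

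Ribosome biogenesis genes were lower in Glutoborin NK cells. Of 33 measured there, 16 were at least 1.5-fold lower and 0 higher, with a median log2 ratio of -0.57, where 7.19% of all genes were that much lower. Ncl, encoding the nucleolar protein nucleolin, had 837 and 530 CPM in NK cells (-0.66), and Fbl, the rRNA methyltransferase fibrillarin, 178 and 111 CPM (-0.68). In regulatory T cells 3 of 27 were lower (5.51% of all genes) and in dendritic cells 4 of 28 (6.84%). In CD8, CD4 and B cells 0 of 35 and in monocytes 0 of 31 were lower by that fold, with medians of -0.19, 0.01, -0.25 and -0.09. With at least 500 UMIs required, 5 of 8 were lower in NK cells, where 4.07% of all such genes were, and only 2 genes of the list could be measured in regulatory T cells and 2 in dendritic cells, with 0 lower. NK cells thus had both the largest drop in the biogenesis list and the negative ribosomal protein ratio, and whether these go together was not tested. Mitochondrial ribosomal protein genes, 78 in the list, had medians between -0.21 (NK cells) and 0.06 (monocytes). Those lower were 4 of 76 in NK cells (7.19% of all genes), 2 of 62 in regulatory T cells (5.51%) and 2 of 71 in dendritic cells (6.84%). Those higher were 2 of 62 in regulatory T cells (2.86%) and 1 of 74 in monocytes (3.69%). Translation factors had medians between -0.06 and 0.07, with 3 of 27 lower in NK cells (7.19%), among them the cap-binding protein Eif4e at -0.70. In CD8 T cells 1 of 27 was lower (4.83%) and in dendritic cells 1 of 27 was higher (4.79%). Regulators of TOP mRNA translation and ribosome synthesis, 13 in the list, had medians between -0.22 (monocytes) and -0.01 (regulatory T cells). In B cells 1 of 12 was lower (3.18% of all genes). That gene was Myc, which drives ribosome synthesis, at 134 and 71.5 CPM (-0.91). In CD4 T cells 1 of 12 was lower (3.01%) and in monocytes 2 of 11 (6.39%). In NK cells 2 of 11 were higher (6.73%), among them Mxd4, which opposes Myc, at 90.4 and 168 CPM (0.90), and Mxd4 was also the 1 of 7 higher in dendritic cells (4.79%).

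For the 8 most uneven members, the genes most like them were found by the correlation of log2 CPM over the 14 class and library sums, among 4312 genes. These points share libraries and lineages, so the correlations are a description. Rpl12 was most like other members (Rps7, Rpl17 and Rpl30, each with r of 1.00), as was Rps19 (Rpl35a, Rpl26 and Rps27a, each with r of 0.96). Rps9 was most like Rps27a (0.91), Rps19 (0.90) and Fau (0.89). Rps27l was most like genes outside the set: Sdf2l1, of the endoplasmic reticulum, at 0.98, and the cytochrome oxidase subunits Cox5a at 0.96 and Cox5b at 0.95. Rpl36al was most like Smim4 (0.87), Tmsb10 (0.83) and Cdkn2d (0.82), Rpl7l1 most like Nap1l1 (0.90), Snrpa (0.88) and Apobec3 (0.88), and Rpl10 most like Pam16 (0.92), Eny2 (0.89) and Hmgb1 (0.87). Rpl7a was most like Tomm20, the nucleolar Npm1 and the translation factor Eef1b2, each at 0.96.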

How the data were processed

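Single-cell RNA was counted in 1 Vehicle and 1 Glutoborin library, with groups taken from the labels' treatment. The deposited values are UMI counts, whole numbers for each gene in each barcode. Cell Ranger 6.1.2 is named per the file headers, and Cell Ranger 6.0.1, Seurat 4.3.0 and mm10 per the submitters' processing notes. The annotation release and how multimapped reads were treated are not given in the sources used here.

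Cells with at least 300 genes, 500 UMIs and under 10% mitochondrial UMIs were kept, which left 8901 Glutoborin and 6492 Vehicle cells. Scrublet doublets (196 Vehicle and 352 Glutoborin) were left out. Both libraries were clustered together (scanpy 1.11.5, 2000 variable genes, 30 components, 15 neighbours, Leiden resolution 1.5; resolution 1 within B and T cells) without the members, -ps pseudogenes, mitochondrial, antigen receptor, haemoglobin and sex-linked genes. The clustering into classes also left out interferon, immediate early, heat shock and cycling genes, which the main subclustering of B and T cells kept. Clusters were named from at least 3 markers, and class names mean cells that resemble that type. Clusters with 139 Vehicle and 161 Glutoborin cells stayed unnamed. Classes and subsets with at least 100 cells per library were compared. Shares have exact Clopper-Pearson intervals and ratios exact Poisson intervals at 95%, which cover counting error only, since 1 library per group allows no test.

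Named were the paralogs with partners, the 5 highest members, those under 50 UMIs, the 8 most uneven over classes and 4 over B or T subsets, and the 3 highest and 3 lowest in each class, ranked by whichever bound of the interval lay closer to 0. Other names were chosen after their values were seen. The members, gene lists and markers were chosen with earlier results of these data known. Gene positions came from GENCODE M21, which held 86 of 86 members, and start sites from RefSeq. Rps4l was not analysed here, and some members that this rule names are not reported here. The alternatives tried were other totals, member sets, filters, resolutions, doublets kept, thinning to 2000 UMIs and higher UMI minimums. The calculation was tested on simulated data.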

Additional observations from a re-analysis of the deposited data

Results flagged for a closer look

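The ribosomal protein share of NK cells went against that of the other compared classes. Its log2 ratio of Glutoborin over Vehicle was -0.0367 (-0.0423 to -0.0312), from 24.4% in Vehicle and 23.8% in Glutoborin, while the other 6 classes had ratios between 0.03 and 0.10. The NK cell ratio lost its negative sign when called doublets were kept. Negative ratios were also found inside the CD4 T cells, at -0.0129 in naive CD4-like and -0.0124 in interferon-high naive CD4-like cells. Of the 6 T subsets compared 3 were higher in Glutoborin, as were 8 of the 8 B subsets. With 1 library per group, the difference between NK cells and the other classes was not tested. The median log2 ratio over the 83 measured members was -0.04 in NK cells, where that over all measured genes was 0.02. In B cells these medians were 0.04 and 0.02.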

How the results depend on the processing

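Log2 ratios of Glutoborin over Vehicle kept their sign in every compared class under every alternative run, except in NK cells, where keeping called doublets gave 0.00112. With doublets kept, the ratio was 0.0680 in CD8 T cells, 0.114 in regulatory T cells, 0.0498 in B cells, 0.0765 in dendritic cells and 0.12 in monocytes, and the CD8 over monocyte fold was 2.27 in Vehicle and 2.19 in Glutoborin. As the median over cells, it was 0.0835 in CD8, 0.0438 in CD4 and 0.109 in regulatory T cells, 0.0518 in B cells, 0.0928 in dendritic cells and 0.148 in monocytes, with CD8 over monocyte folds of 2.56 and 2.45. Thinned to 2000 UMIs, it was 0.0432 in CD4 and 0.149 in regulatory T cells, 0.0510 in B cells, -0.0454 in NK cells, 0.0889 in dendritic cells and 0.12 in monocytes, with folds of 2.53 and 2.45. A mitochondrial limit of 25% gave 0.0886 in CD8, 0.0574 in CD4 and 0.0718 in regulatory T cells, 0.0566 in B cells, 0.0785 in dendritic cells and 0.12 in monocytes, with a Vehicle fold of 2.32. A limit of 5% gave 0.0446 in CD4 and 0.0766 in regulatory T cells, 0.0370 in B cells, -0.0479 in NK cells and 0.180 in dendritic cells. Resolution 0.8 gave 0.0453 in CD4 T cells, 0.0974 in monocytes and a Glutoborin fold of 2.28, and no regulatory T cell class. Totals without mitochondrial genes gave 0.0824 in CD8 T cells and folds of 2.33 and 2.30, and without immunoglobulin genes as well, 0.0819 and folds of 2.32 and 2.30. With the paralogs left out and a few ribosome components outside the symbol rule added, the ratio was 0.0489 in B cells and -0.0301 in NK cells, with folds of 2.28 and 2.26.

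The marginal zone-like over transitional-like fold was 1.38 and 1.41 without mitochondrial and immunoglobulin UMIs. Subclustering without interferon, immediate early and cycling genes gave 1.37 and 1.38, and 1.23 and 1.22 for naive CD8-like over regulatory-like cells. The naive CD8-like share was then 39.5% and 41.6%, against 41.7% and 42.6% in the main subset. Only 44.8% of the cells in either of these 2 naive CD8-like groups were in both, against 94.8% for regulatory-like cells. Without the 10 cells richest in the paralog, Rps27l was 10.5% of its pair in Glutoborin monocytes and 0.919% and 1.07% in CD4 T cells, and Rpl22l1 was 30.7% in Vehicle NK cells and 21.7% and 14.4% in monocytes. With at least 500 UMIs required, 0 members in monocytes passed 1.5-fold, and biogenesis genes lower were 5 of 8 measured in NK cells (4.07% of all genes), 0 of 2 in regulatory T cells and 0 of 2 in dendritic cells, since fewer of the list could be measured. Of the 173 recomputed main values, 108 stayed within their counting interval or, for counts and median ranges, within a set fold of at most 1.5. A second set of 172 values held the class shares and the counts at 1.2-fold, and 58 of these stayed so while 114 moved. Class shares shifted by between -4.36 percentage points (mitochondrial limit of 5%) and 2.27 points (totals without mitochondrial and immunoglobulin genes). The cause was not tested for the values that moved. No paired analysis was possible because each group is 1 library and no result comes from a test. Depth limits Rpl3l, Rpl10l, Rpl39l and Rps19bp1, which had under 50 UMIs in at least 1 compared class and library.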
